A study of Danio rerio with 6 samples.

Results

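The anterior hox genes described here were 10 zebrafish genes of paralog groups 1 to 5, out of 32057 genes listed by Ensembl identifier. They were chosen by identifier, with no measured value in the choice: hoxb1a and hoxb1b of group 1, hoxa2b and hoxb2a of group 2, hoxb3a and hoxd3a of group 3, hoxb4a and hoxd4a of group 4, and hoxb5a and hoxb5b of group 5. The study sorted neural crest (NC) cells by FACS from dissociated embryos at 24 hpf that carried a pair of transgenes, Tg(7XTCF:nls-mCherry)ia5, a reporter of canonical Wnt signaling, and Tg(-7.2sox10:EGFP)ir937, which marks NC cells. EGFP-positive cells with mCherry formed the high-Wnt population and EGFP-positive cells without it the low-Wnt population, with 3 libraries of each. All 6 libraries thus share genotype, stage and the sox10 gate, and that promoter is also active outside NC, in the otic vesicle. The labels name no axial level for the sorted cells and do not say whether replicates came from separate clutches, so p-values measure the spread between these libraries, which may be technical.

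Hox genes encode homeodomain transcription factors that lie in clusters and are expressed in order along the head-to-tail axis, with low-numbered groups reaching furthest forward. Groups 1 to 4 pattern the rhombomeres of the hindbrain and the NC that leaves them, and group 2 genes give the second pharyngeal arch its identity, while NC of the first arch is hox-negative. Retinoic acid and, for more posterior groups, Wnt and Cdx factors set their expression borders. Zebrafish have duplicated hox clusters, so that hoxb1a and hoxb1b, or hoxb5a and hoxb5b, descend from 1 ancestral gene each. The 10 genes lie in 4 clusters: hoxb1a, hoxb2a, hoxb3a, hoxb4a and hoxb5a in hoxba, hoxb1b and hoxb5b in hoxbb, hoxd3a and hoxd4a in hoxda, and hoxa2b in hoxab.

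Values are TPM, transcript abundances corrected for transcript length and scaled to the same total in each library, so levels can be compared between genes. Depth is lost in this unit, so the counting error of a value is unknown. Low-Wnt replicate 3 stood apart from the rest: 9230 genes had a TPM of at least 1 there, against 13481 to 14417 in the other 5 libraries. Its TPM lay below the mean of the other low-Wnt libraries for 82.6% of the 14163 genes tested. Tests are therefore given with and without it. The NC markers sox10, foxd3, tfap2a, crestin and snai1b, 5 of 6 listed, were above 0 in every library and summed to between 582.2 and 703.9 TPM over the high-Wnt and between 124.2 and 473.4 TPM over the low-Wnt libraries, lowest in low-Wnt replicate 3. With 6 libraries 0 of the 5 were DE with limma (2 at an unadjusted p under 0.05), and without low-Wnt replicate 3 foxd3 and tfap2a were DE and higher in high-Wnt cells. The populations overlapped for sox10 and snai1b in both cases.

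All 10 hox genes had a TPM above 0 in every library. Together they summed to 92.0, 106.7 and 117.1 TPM in the high-Wnt replicates (1, 2 and 3 in order), and to 92.3, 87.5 and 46.4 TPM in low-Wnt replicates 1, 2 and 3. The populations overlapped in this sum, by the closeness of high-Wnt replicate 1 and low-Wnt replicate 1. The most abundant of the 10 by its mean was hoxb3a, at 27.6 TPM over the 6 libraries. It exceeded the gene with the next mean, hoxb2a, in 6 of 6 libraries and was the most abundant in 5. In low-Wnt replicate 3 hoxa2b was above it, at 14.2 against 10.7 TPM. The means of hoxb2a, hoxd3a and hoxa2b were 14.0, 13.3 and 12.4 TPM, and the order of these neighbours changed from library to library. Below them came hoxd4a at 7.84 TPM and hoxb1b at 6.36 TPM, whose order also changed between libraries. The gap between hoxb1b and hoxb5a, at 3.61 TPM, held in 6 of 6 libraries. The lowest means were 2.83 TPM for hoxb5b, 1.61 TPM for hoxb4a and 0.883 TPM for hoxb1a, and no neighbouring pair among these genes kept its order in every library.

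**Figure D1:**
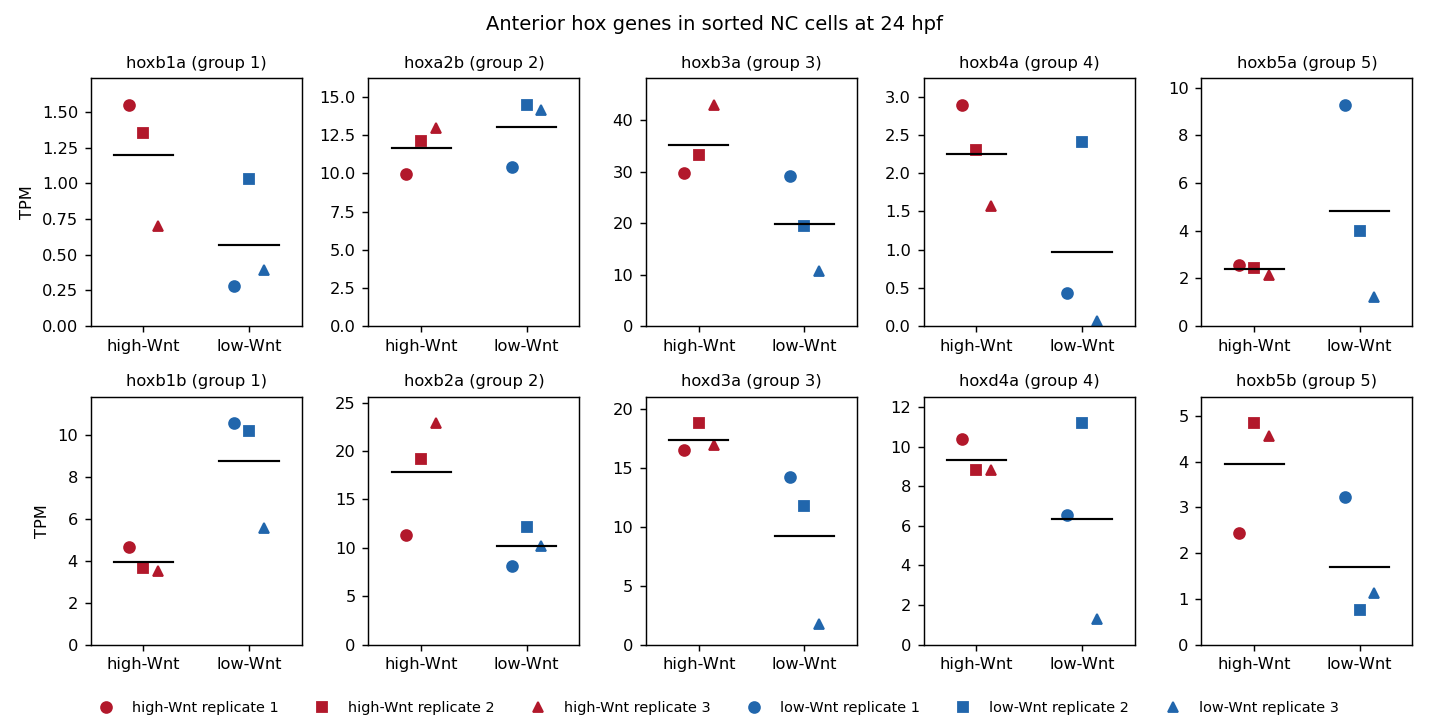
TPM of the 10 anterior hox genes (vertical axes, each from 0) in the high-Wnt (red) and low-Wnt (blue) libraries, with symbols for replicates 1 to 3 and a black line at the mean of each population. For hoxb1b every low-Wnt library, from 5.58 TPM up, lay above every high-Wnt library, of which the highest was at 4.66 TPM.

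To ask which anterior hox genes differed with Wnt reporter activity, log2(TPM + 1) was compared between the populations with limma over all genes that passed a filter of at least 1 TPM in at least 3 libraries, or in at least 2 where low-Wnt replicate 3 was left out. DE means an adjusted p under 0.05, by Benjamini-Hochberg over all tested genes. All 10 hox genes passed the filter in both fits. With all 6 libraries, 0 of the 10 hox genes were DE. In the same fit 0 of them had an unadjusted limma p under 0.05 (2 after quantile normalization or median centring). Over all tested genes 0.367% were DE (0.261% with a higher and 0.106% with a lower level in high-Wnt cells), and 14.2% had an unadjusted p under 0.05. Without low-Wnt replicate 3, 1 of the 10, hoxb1b, was DE and lower in high-Wnt cells, where 12.7% of all tested genes were DE, split into 7.17% higher and 5.57% lower. In that fit 4 of the 10, hoxb1b, hoxb2a, hoxb3a and hoxb5a, had an unadjusted p under 0.05, against 31.3% of all tested genes. The high-Wnt and low-Wnt values were fully apart for 3 of the 10 with 6 libraries and for 4 of the 10 without low-Wnt replicate 3, near the shares of 28% and 47.8% over all tested genes. The library was left out with earlier results of these data known, so the fit without it does not replace that on all 6. Log2 fold changes were above 0 for 7 of the 10 hox genes in both fits, against 78.4% of all tested genes with 6 libraries and 53.3% without low-Wnt replicate 3, and hoxb1a was on the other side of 0 after quantile normalization or median centring of the 6 libraries. Their median log2 fold change was 0.76 with 6 libraries, where the median of all tested genes was 0.51, and 0.41 without low-Wnt replicate 3, where it was 0.05. That order rested on low-Wnt replicate 1: without it the hox median was 0.67 against 0.76 for all tested genes, and without low-Wnt replicates 1 and 3 it was 0.0032 against 0.066, with 5 of the 10 above 0. In sorted bulk samples, a smaller number of hox-expressing cells and less hox RNA per cell cannot be told apart.

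**Figure D2:**
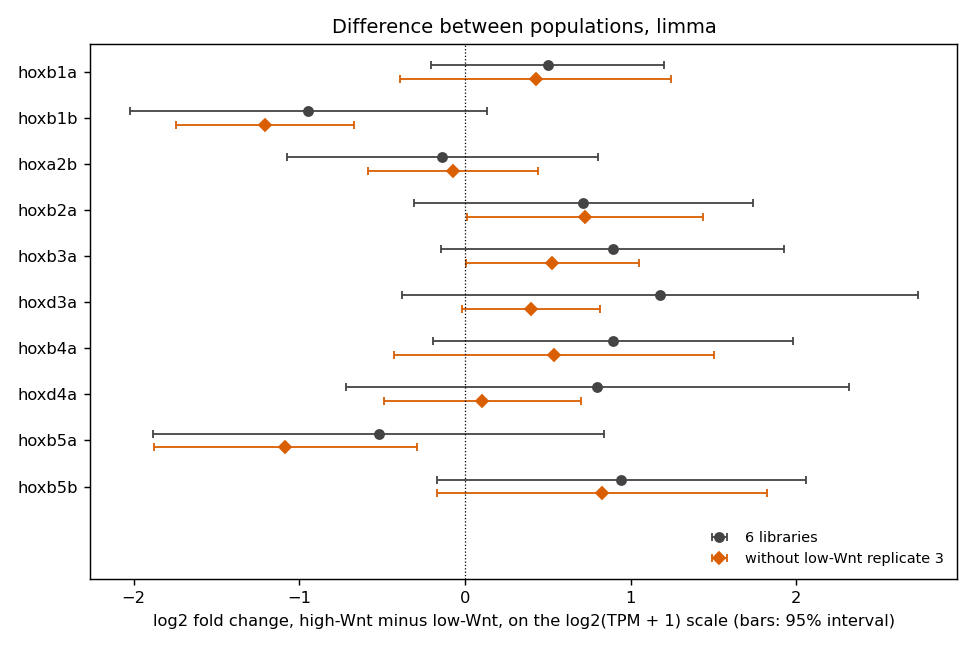
Log2 fold changes of the 10 genes (high-Wnt minus low-Wnt, on the log2(TPM + 1) scale) with 95% intervals from limma, for all 6 libraries (grey circles) and without low-Wnt replicate 3 (orange diamonds). The interval of hoxb1b ran from -1.74 to -0.67 without low-Wnt replicate 3 and from -2.02 to 0.13 with it.

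Group 1 genes are the earliest hox genes to be activated in the hindbrain. In zebrafish, hoxb1b acts early in setting up the hindbrain, while hoxb1a is retained in rhombomere 4, whose NC enters the second arch. For hoxb1b (ENSDARG00000054033), high-Wnt replicates 1, 2 and 3 had 4.66, 3.65 and 3.52 TPM, and low-Wnt replicates 1, 2 and 3 had 10.6, 10.2 and 5.58 TPM. All low-Wnt libraries were above all high-Wnt libraries, as were those of 5.57% of all tested genes, and low-Wnt replicate 3 was the lowest of the low-Wnt libraries. Means were 3.94 ± 0.62 TPM (SD, n = 3) in high-Wnt against 8.77 ± 2.77 TPM (SD, n = 3) for the low-Wnt population, which was 2.22-fold higher, or 2.63-fold higher without low-Wnt replicate 3. The log2 fold change of hoxb1b was -0.95 (standard error 0.47, limma adjusted p = 0.405) with 6 libraries. After quantile normalization of the 6 it was -1.51 (limma adjusted p = 0.072), and after median centring -1.54 (limma adjusted p = 0.105). Without low-Wnt replicate 3 it was -1.21 (standard error 0.23, limma adjusted p = 0.018). That call was not kept in every alternative. It was lost when high-Wnt replicate 2 (limma adjusted p = 0.086) or high-Wnt replicate 3 (0.092) was also left out. It was also lost with the replicate number as a block (limma adjusted p = 0.130). There high-Wnt replicate 3 has no partner, so the log2 fold change, -1.15, equals that without high-Wnt replicate 3. The DE calls over all tested genes fell as well in these fits, from 1912 to 491, 428 and 489. Without low-Wnt replicate 1, which left 1 low-Wnt library, the log2 fold change of hoxb1b was -1.18, and no call is read from that fit. In every alternative without low-Wnt replicate 3 the log2 fold change stayed between -1.38 and -1.15, with a limma adjusted p between 0.013 and 0.130.

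Its duplicate hoxb1a (ENSDARG00000008174) was the weakest of the 10 genes, with 1.55, 1.35 and 0.70 TPM in the high-Wnt replicates (1, 2 and 3 in order), against 0.28, 1.03 and 0.39 TPM in the low-Wnt replicates. The populations overlapped through high-Wnt replicate 3 and low-Wnt replicate 2, and at these levels the pseudocount of 1 understates any change. The log2 fold change of hoxb1a was 0.50 (limma adjusted p = 0.484) with 6 libraries, -0.29 after quantile normalization and -0.10 after median centring, and 0.43 (limma adjusted p = 0.447) without low-Wnt replicate 3, where leaving out 1 more library moved it to between 0.095 and 0.76. The ratio of hoxb1b to hoxb1a within a library, which does not depend on how the library was scaled, was 3.01, 2.70 and 5.03 in high-Wnt replicates 1, 2 and 3. In low-Wnt replicates 1, 2 and 3 it was 37.7, 9.87 and 14.3, all above the high-Wnt libraries. The quantification divides reads that similar transcripts share by estimation, so the ratio of such duplicates carries that uncertainty. The ratios given here were not tested, and no share of other gene pairs with ratios apart was computed beside them.

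Group 2 genes pattern the second arch and the rhombomeres beside it. For hoxa2b (ENSDARG00000023031), high-Wnt replicates 1, 2 and 3 had 9.95, 12.2 and 13.0 TPM, and low-Wnt replicates 1, 2 and 3 had 10.4, 14.5 and 14.2 TPM. The populations overlapped, and low-Wnt replicate 3 was not low for this gene. The log2 fold change of hoxa2b was -0.14 (limma adjusted p = 0.865) with 6 libraries. Without low-Wnt replicate 3 it was -0.07 with a 95% interval from -0.59 to 0.44 (limma adjusted p = 0.850), which leaves room for a moderate change in either direction. For hoxb2a (ENSDARG00000000175), the values were 11.4, 19.2 and 22.9 TPM in the high-Wnt replicates (1, 2 and 3 in order), against 8.16, 12.1 and 10.2 TPM in the low-Wnt replicates. High-Wnt replicate 1 lay below low-Wnt replicate 2 and the other high-Wnt libraries above all low-Wnt libraries. The mean of hoxb2a was 17.8 ± 5.86 TPM (SD, n = 3) in high-Wnt against 10.2 ± 1.99 TPM (SD, n = 3) for the low-Wnt population. For hoxb2a the log2 fold change was 0.71 with 6 libraries (limma adjusted p = 0.488) and 0.72 without low-Wnt replicate 3 (95% interval 0.01 to 1.43, limma adjusted p = 0.153). On the plain TPM scale low-Wnt replicate 3 thus moved hoxb2a little. After quantile normalization the log2 fold change of hoxb2a was 0.25 with 6 libraries and 0.71 without low-Wnt replicate 3. Median centring gave 0.12 and 0.66 in the same order. The ratio of hoxb2a to hoxa2b was 1.14, 1.58 and 1.76 in high-Wnt replicates 1, 2 and 3 and 0.785, 0.838 and 0.720 in low-Wnt replicates 1, 2 and 3. In every high-Wnt library hoxb2a was therefore the more abundant gene of the group, and in every low-Wnt library hoxa2b was. By TPM each of these genes overlapped between the populations. How often ratios of other gene pairs lie apart in this way was not computed.

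Group 3 genes act in the posterior hindbrain and in the NC of the third and more posterior arches. For hoxb3a (ENSDARG00000029263), high-Wnt replicates 1, 2 and 3 had 29.7, 33.2 and 43.0 TPM, and low-Wnt replicates 1, 2 and 3 had 29.2, 19.5 and 10.7 TPM. The populations did not overlap, but high-Wnt replicate 1 and low-Wnt replicate 1 were nearly equal. For hoxd3a (ENSDARG00000059280), high-Wnt replicates 1, 2 and 3 had 16.5, 18.8 and 16.9 TPM, and low-Wnt replicates 1, 2 and 3 had 14.2, 11.8 and 1.75 TPM. All high-Wnt libraries were again above all low-Wnt libraries, and low-Wnt replicate 3 was far below the other low-Wnt libraries. Of all tested genes, 22.4% lay above in this way with 6 libraries and 25.1% without low-Wnt replicate 3, and hoxb3a and hoxd3a were 2 of the 10 hox genes in both cases. The log2 fold change of hoxb3a was 0.89 (limma adjusted p = 0.411) with 6 libraries and 0.53 (95% interval 0.0039 to 1.05, limma adjusted p = 0.157) without low-Wnt replicate 3. That of hoxd3a fell from 1.18 (limma adjusted p = 0.462) to 0.40 (95% interval -0.020 to 0.82, limma adjusted p = 0.176) when that library was left out. Neither gene was DE in either fit. The ratio of hoxb3a to hoxd3a overlapped, between 1.77 and 2.54 for high-Wnt and between 1.66 and 6.09 for low-Wnt libraries, and the 6.09 was low-Wnt replicate 3.

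Group 4 genes mark the posterior hindbrain and anterior spinal cord and act downstream of retinoic acid. For hoxd4a (ENSDARG00000059276), high-Wnt replicates 1, 2 and 3 had 10.4, 8.80 and 8.84 TPM, and low-Wnt replicates 1, 2 and 3 had 6.56, 11.2 and 1.27 TPM. The populations overlapped, since low-Wnt replicate 2 was the highest library of all. The log2 fold change of hoxd4a was 0.80 (limma adjusted p = 0.570) with 6 libraries, -0.12 with sample quality weights and 0.11 (95% interval -0.49 to 0.70, limma adjusted p = 0.809) without low-Wnt replicate 3. The weaker hoxb4a (ENSDARG00000013533) had 2.89, 2.30 and 1.57 TPM in the high-Wnt replicates (1, 2 and 3 in order), against 0.43, 2.41 and 0.06 TPM in the low-Wnt replicates. Only low-Wnt replicate 2 reached the level of the high-Wnt libraries. Its log2 fold change, 0.89 (limma adjusted p = 0.433) with 6 libraries, was 0.54 (limma adjusted p = 0.416) without low-Wnt replicate 3 and -0.088 when low-Wnt replicate 1 was left out as well, and hoxb4a was DE in neither fit.

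Group 5 genes are expressed from the anterior spinal cord backwards. For hoxb5a (ENSDARG00000013057), high-Wnt replicates 1, 2 and 3 had 2.57, 2.43 and 2.15 TPM, and low-Wnt replicates 1, 2 and 3 had 9.28, 4.0 and 1.22 TPM. The high-Wnt libraries lay close together and the low-Wnt libraries spread to both sides of them. Without low-Wnt replicate 3, hoxb5a was higher in both remaining low-Wnt libraries, as were 22.6% of all tested genes, giving a log2 fold change of -1.09 with a standard error of 0.34 (limma adjusted p = 0.074). Among the alternatives of that fit that kept both of these low-Wnt libraries, its limma adjusted p ranged from 0.045 to 0.230. It was DE after quantile normalization. When low-Wnt replicate 2 was also left out, which left 1 low-Wnt library, the log2 fold change of hoxb5a was -1.61. The 6 libraries gave -0.52 with a standard error of 0.59 (limma adjusted p = 0.654), and leaving out low-Wnt replicate 1 from them brought it to 0.020. Quantile normalization of the 6 libraries gave -1.14 for hoxb5a (limma adjusted p = 0.132), and median centring gave -1.12 (limma adjusted p = 0.230). The duplicate hoxb5b (ENSDARG00000054030) had 2.45, 4.84 and 4.57 TPM in the high-Wnt replicates (1, 2 and 3 in order), against 3.22, 0.75 and 1.13 TPM in the low-Wnt replicates. High-Wnt replicate 1 was below low-Wnt replicate 1, so that the populations overlapped. For hoxb5b the log2 fold change was 0.94 (limma adjusted p = 0.419) with 6 libraries and 0.83 (limma adjusted p = 0.230) without low-Wnt replicate 3, where leaving out 1 more library moved it to between 0.19 and 1.46. As in group 1, the fold changes of the duplicates had opposite signs in both fits, except where hoxb1a or hoxb5a changed sign with 6 libraries as given above. The ratio of hoxb5a to hoxb5b was 1.05, 0.502 and 0.470 in high-Wnt replicates 1, 2 and 3, and 2.88, 5.33 and 1.08 in low-Wnt replicates 1, 2 and 3, with high-Wnt replicate 1 and low-Wnt replicate 3 almost touching.

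**Figure D3:**
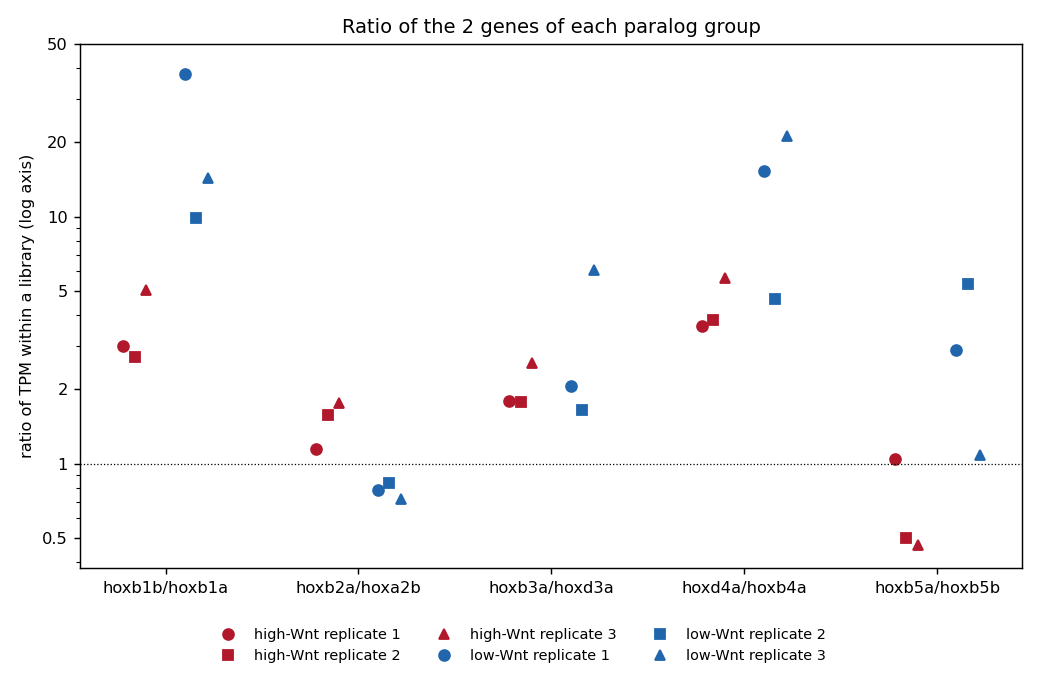
Ratio of the TPM of the 2 genes of each paralog group within each library (log axis), for high-Wnt (red) and low-Wnt (blue) libraries, with the dotted line at a ratio of 1. The hoxb2a to hoxa2b ratio was at least 1.14 in high-Wnt and at most 0.838 in low-Wnt libraries, and the ratios of groups 3 and 4 overlapped. Ratios of other gene pairs were not computed, so no background share is given.

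By paralog group, group 1 summed to 6.21, 5.0 and 4.22 TPM in the high-Wnt replicates (1, 2 and 3 in order), against 10.8, 11.2 and 5.97 TPM in the low-Wnt replicates, a log2 ratio of the means of -0.86, and -1.10 without low-Wnt replicate 3. High-Wnt replicate 1 was just above low-Wnt replicate 3, and without the latter the populations were apart. Group 3 summed to 46.2, 52.0 and 59.9 TPM in the high-Wnt replicates (1, 2 and 3 in order), against 43.4, 31.3 and 12.4 TPM in the low-Wnt replicates, a log2 ratio of 0.86, and 0.50 without low-Wnt replicate 3. Here all high-Wnt libraries were above all low-Wnt libraries. The log2 ratios of groups 2, 4 and 5 were 0.35, 0.67 and -0.04 with 6 libraries and 0.39, 0.17 and -0.44 without low-Wnt replicate 3. The populations of these groups overlapped in both cases. Single libraries decided the last pair: the log2 ratio of group 4 was 1.48 without low-Wnt replicate 2, and that of group 5 turned to 0.84 without low-Wnt replicate 1 and to 0.099 without high-Wnt replicate 1. By cluster, the 5 hoxba genes summed to 48.1, 58.5 and 70.3 TPM in the high-Wnt and 47.4, 39.1 and 22.5 TPM in the low-Wnt replicates, and the 2 hoxda genes to 26.9, 27.6 and 25.7 TPM and 20.8, 23.0 and 3.02 TPM. High-Wnt libraries were above low-Wnt libraries for both of these clusters, for hoxba only by 48.1 against 47.4 TPM. Of single tested genes, 22.4% lay above in this way with 6 libraries. The sums of group 3 and of these clusters contain hoxb3a or hoxd3a, which were apart by themselves, so they are no separate result. The 2 hoxbb genes summed to 7.11, 8.49 and 8.09 TPM in the high-Wnt and 13.8, 10.9 and 6.71 TPM in the low-Wnt replicates, which overlapped through low-Wnt replicate 3. They include hoxb1b, so this sum is no separate result either. No test was made of these sums.

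The share of each gene in the summed TPM of the 10 genes removes the scaling of a library. The share of hoxb1b was 5.06%, 3.42% and 3.01% in high-Wnt replicates 1, 2 and 3 and 11.4%, 11.6% and 12.0% in low-Wnt replicates 1, 2 and 3, so that low-Wnt replicate 3 lay with the other low-Wnt libraries. Of the 10 genes, hoxb1b was the 1 whose share did not overlap between the populations. Relative to the same sum, 23.7% of all tested genes did not overlap, and 11.7% were lower in high-Wnt cells as hoxb1b was. The share of group 3 was 50.2%, 48.7% and 51.2% in high-Wnt libraries and 47.0%, 35.8% and 26.7% in low-Wnt libraries. Low-Wnt replicate 3 had a different composition elsewhere. Group 2 made up 52.5% of its hox TPM, against 20.1% to 30.6% in the other 5 libraries, and group 4 made up 2.87%, against 7.58% to 15.5%.

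**Figure D4:**
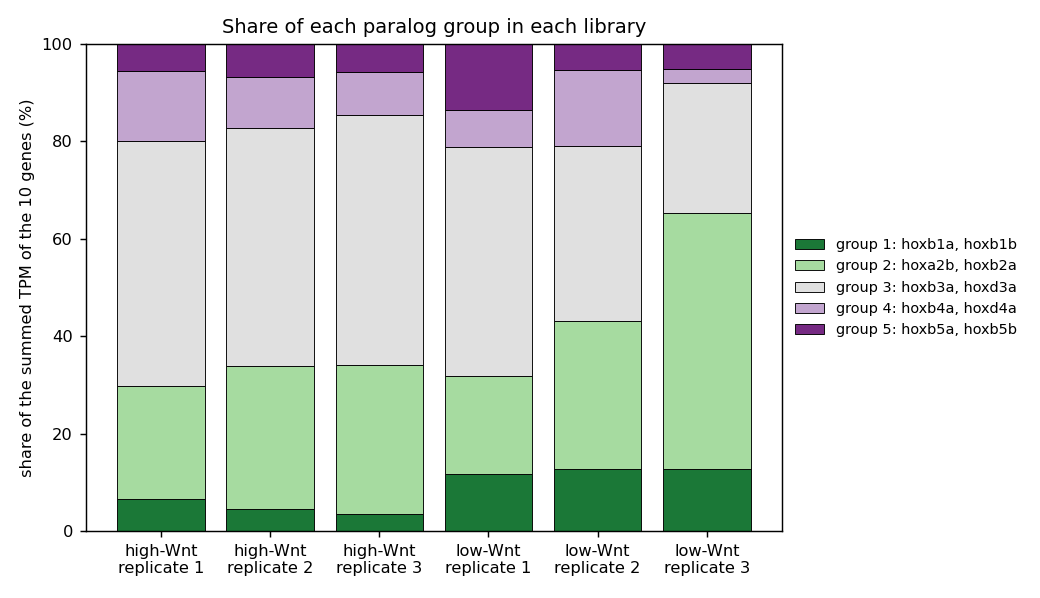
Share of each paralog group in the summed TPM of the 10 genes (vertical axis, %), 1 bar per library. Group 1 held 3.60% to 6.75% in the high-Wnt libraries and 11.7% to 12.9% in the low-Wnt libraries, and group 2 was largest in low-Wnt replicate 3 at 52.5%. Group 1 was mostly hoxb1b, so its share is no separate result. Relative to the same sum, 23.7% of single tested genes did not overlap between the populations.

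Within the low-Wnt population, the low level of replicate 3 was uneven across the hox genes. Against the mean of low-Wnt replicates 1 and 2, with 1 TPM added to both, its log2 ratio was 0.17 for hoxa2b and 0.01 for hoxb2a. It was -2.35 for hoxd3a, -2.12 for hoxd4a and -1.78 for hoxb5a. Of the 10 genes 8 were below that mean, with a median of -0.95. Over all tested genes 82.6% were below, with a median of -1.23. Over the 9722 tested genes in the hox genes' range of that mean, 88.9% were below, with a median of -1.32. On this scale both genes of the hoxda cluster and hoxb5a lay further below than the typical gene. Both genes of group 2 lay at or above that mean. The added 1 TPM shrinks the drop of weak genes, and hoxb4a was at -1.19 with it. As a plain ratio to that mean hoxb4a was the furthest below, at 0.042 (0.06 against 1.42 TPM). Plain ratios of hoxd3a, hoxd4a and hoxb5a were 0.135, 0.143 and 0.184.

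Other genes of the hox system were examined as lists. Of 8 further hox genes of groups 1 to 5, 7 were paired with an identifier. Of these, 5 were tested with 6 libraries and 6 without low-Wnt replicate 3, and 0 were DE with limma in either fit, with 1 and 2 at an unadjusted p under 0.05 and median log2 fold changes of 0.48 and 0.22. From this list, chosen after their values were seen, hoxc3a had 68.1, 86.5 and 69.3 TPM in the high-Wnt replicates (1, 2 and 3 in order), against 45.4, 64.6 and 16.9 TPM in the low-Wnt replicates, above hoxb3a in every library. The gene listed as HOXC5 had 2.60, 4.12 and 2.36 TPM in high-Wnt and 4.74, 7.64 and 3.70 TPM in low-Wnt replicates 1, 2 and 3. Of 14 TALE-class cofactors of Hox proteins (the Pbx, Meis and Pknox families), 13 were tested in each fit and 0 were DE with limma, with 1 and 2 at an unadjusted p under 0.05 and medians of 0.71 and -0.079 in the same order. Of 13 regulators of hox expression, 9 were paired, 7 and 8 were tested with and without low-Wnt replicate 3, and 0 were DE with limma, with 2 and 3 at an unadjusted p under 0.05 and medians of 0.91 and 0.42. From this list, the gene listed as EGR2 was also chosen after its values were seen. It is the krox20 factor that activates group 2 genes in rhombomeres 3 and 5. High-Wnt replicates 1, 2 and 3 had 2.29, 3.95 and 4.11 TPM of EGR2, against 1.83, 0.89 and 0.69 TPM for low-Wnt cells. EGR2 had a log2 fold change of 1.07 (limma adjusted p = 0.287) with 6 libraries and 0.92 (0.107) without low-Wnt replicate 3. Among regulators tested with 6 libraries, cdx4, cyp26a1, cyp26b1 and cyp26c1 also lay fully above in high-Wnt cells, as did 22.4% of all tested genes. The regulators raraa and rarab overlapped. EGR2 was thus not singled out within the list, and a link between it and hoxb2a was not tested. The 6-library profile most like the summed TPM of the 10 genes was that of RPRD1B, followed by si:ch211-156j16.1 and rap1b, with Pearson's r of 0.997, 0.996 and 0.996 on the log2(TPM + 1) scale. Since 2704 of 8649 genes had r above 0.9 and the 3 named genes also have their lowest value in low-Wnt replicate 3, the likeness is a description of these libraries.

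Markers of several other tissues and of some NC lineages differed between the populations. The study used neurog1 to mark neural progenitors of the NC, so this gene does not set neural tube apart from NC. All of the 5 neural tube and neuron markers (sox2, sox3, sox19a, elavl3 and neurog1) were DE and higher in high-Wnt cells when low-Wnt replicate 3 was left out, while 0 were DE with limma on 6 libraries (4 at an unadjusted p under 0.05). Their sum ranged from 148.2 to 177.0 TPM over the high-Wnt libraries and from 26.0 to 68.1 TPM over the low-Wnt libraries. None of them was at 0 in any library. The hindbrain also expresses anterior hox genes. Of the 10, 7 had a higher mean TPM in high-Wnt cells, while hoxb1b, hoxa2b and hoxb5a had a lower one. Log2 fold changes were above 0 for 78.4% of all tested genes with 6 libraries and for 53.3% without low-Wnt replicate 3. The count of 7 is given beside these shares only, and a likeness of the hox genes to these markers was not tested. The muscle markers actc1b and myod1, 2 of 3 listed, summed to between 1012 and 1690 TPM over the high-Wnt and between 389.7 and 543.6 TPM over the low-Wnt libraries, with actc1b DE and higher without low-Wnt replicate 3. As a defining marker, myod1 was listed at 0 in low-Wnt replicate 2 and was DE in neither fit. The epidermal markers krt4, tp63 and epcam summed to between 987.9 and 1232 TPM over the high-Wnt and between 198.9 and 584.6 TPM over the low-Wnt libraries, with krt4 DE and higher and tp63 DE and lower in high-Wnt cells without low-Wnt replicate 3. With 6 libraries the log2 fold change of tp63 was on the other side of 0, at 0.070 (limma adjusted p = 0.958). The otic markers otomp and eya1, 2 of 3 listed, summed to between 28.3 and 35.6 TPM over the high-Wnt and between 15.8 and 40.2 TPM over the low-Wnt libraries. The populations overlapped in this sum only through low-Wnt replicate 3. Low-Wnt replicates 1 and 2, at 37.6 and 40.2 TPM, were above every high-Wnt library. By itself eya1 overlapped in both cases, and neither gene was DE with limma in either fit. The pigment cell genes pmela and dct, 2 of 3 listed, were both DE and higher in high-Wnt cells without low-Wnt replicate 3, and twist1a, 1 of 2 skeletal crest genes listed, was as well. With 6 libraries 0 of these muscle, epidermal, pigment and skeletal crest genes were DE with limma, with 2, 1, 2 and 0 of them at an unadjusted p under 0.05. The vascular and blood genes kdrl and gata1a, 2 of 3 listed, summed to at most 3.11 TPM in any library. The part of these cells in the hox values was not tested.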

How the data were processed

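Libraries were made by the Smart-seq2 protocol from sorted NC cells. With STAR and RSEM, the authors derived TPM per Ensembl gene on GRCz11, and these deposited values, 1 column per library and no counts, were the starting point. RSEM divides reads shared by similar transcripts by estimation, which can move reads between duplicated hox genes. The authors used edgeR. TPM values are not counts, and limma 3.58.1 in R 4.3.3 was used here in its place. The model had population only, with moderated variances and an intensity trend, on log2(TPM + 1). The pseudocount of 1 understates changes of genes with low TPM. Columns were assigned by the sample labels.

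The gene table had an entry for 28988 of the 32057 identifiers and for all 10 hox genes, 3 under their zebrafish symbol and 7 under a human-style symbol. Their zebrafish symbols were given with the list of members. For the other lists, a symbol was matched where the table held it or a single entry without the paralog letter, and both PKNOX1 entries were taken. No gene sequences were used here, so sequence identity between duplicates was not analysed.

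The hox genes, lists and tests were chosen with earlier results of these data known. All 10 hox genes were named by rule. From the other hox lists, values were to be given only for genes past the adjusted threshold, and the exceptions are stated. Cell type markers were given by their sums, their calls and any value of 0. Alternatives were a pseudocount of 0.1, no filter, median centring, quantile normalization, a minimum mean of 5 TPM, sample quality weights, no variance trend, a block for the replicate number and the omission of single libraries. Rescaling without the 10 most abundant genes was planned for the sums and added for the fits after seeing the data. The procedure was tested on simulated data. Python 3.11.15, pandas 2.3.3 and matplotlib 3.10.9 made the tables and plots.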

Additional observations from a re-analysis of the deposited data

How the results depend on the processing

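With all 6 libraries, the number of DE hox genes stayed at 0 except with sample quality weights, where 5 of the 10 and 4128 of all 14163 tested genes were DE, hoxb2a, hoxb3a and hoxb5b higher and hoxb1b and hoxb5a lower in high-Wnt cells, and low-Wnt replicate 3 had a weight of 0.037. In the other settings with all 6 libraries, 4 to 177 of all tested genes were DE, so few genes of any kind were called. The minimum mean of 5 TPM left 6 of the 10 hox genes to test, with and without low-Wnt replicate 3. An unadjusted limma p under 0.05 was held by 2 hox genes, hoxb1b and hoxb5a, after quantile normalization or median centring of the 6 libraries. Beside them 2390 and 1918 of all 14163 tested genes were under it. The count was 1 without a variance trend and 6 with sample quality weights, beside 1997 and 5750 of all tested genes. Leaving out single libraries gave a range of 0 to 1 DE hox genes. There 0 of all tested genes were DE unless low-Wnt replicate 3 was the library left out. Those counts of 0 therefore say nothing about the hox genes in particular. Without low-Wnt replicate 3, the number was 1, or 2 after quantile normalization (hoxb1b and hoxb5a). It was 0 with the replicate block (hoxb1b at -1.15, limma adjusted p = 0.130), and 0 to 1 when a high-Wnt library was also left out. With 1 low-Wnt library left, that library is assumed to vary like the others, so no calls are read from such fits. The block gave 0 with 6 libraries too. Same-numbered libraries showed correlations of 0.03, -0.01 and 0.14 in how they departed from their population means. Pairs of different numbers showed -0.11 to 0.09. From so few libraries, such correlations cannot settle whether same-numbered libraries were paired. The labels name no pairing, so the main fits had no block. Quantile normalization moved the all-gene median of the log2 fold changes from 0.51 to 0.016 and median centring to -0.083, and that of the hox genes from 0.76 to 0.22 and 0.16. Of 146 values of single hox genes with 6 libraries, 4 reversed: hoxb1a (-0.29 after quantile normalization, -0.10 after median centring), hoxd4a (-0.12 with sample quality weights) and hoxb5a (0.020 without low-Wnt replicate 1, in a range of -1.09 to 0.020 when single libraries were left out). Of 136 without low-Wnt replicate 3, 4 reversed, each with 1 more library left out: hoxa2b (0.03 without high-Wnt replicate 1, 0.15 without low-Wnt replicate 2), and, without low-Wnt replicate 1, hoxb4a (-0.088) and hoxd4a (-0.24). The ranges over left-out libraries were 0.095 to 0.76 for hoxb1a, 0.19 to 1.46 for hoxb5b, -0.29 to 0.15 for hoxa2b, -0.088 to 1.17 for hoxb4a and -0.24 to 0.45 for hoxd4a. The log2 ratio of the group 5 sums also turned, to 0.84 without low-Wnt replicate 1 and 0.099 without high-Wnt replicate 1. The cause was not tested. TPM keeps no depth, so the counting error of the weakest genes, hoxb1a and hoxb4a, is unknown.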
